A study of Arabidopsis thaliana with 4 samples.

Results

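Genes of 4 enzyme families that modify small molecules were examined in Arabidopsis thaliana rosettes: cytochromes P450 (CYP), UDP-glycosyltransferases (UGT), glutathione S-transferases of the tau and phi classes (GSTU, GSTF) and aldehyde dehydrogenases (ALDH). The members are the probe sets of the array whose 1 annotated gene symbol begins with one of these family names and a number, with UGT76B1 left out, and for P450s a number, a letter and a number, which leaves out cyclophilins that share the CYP prefix. This gave 89 genes among 22746 non-control probe sets, 13513 of which were paired with 1 gene. The set held 46 UGT, 23 P450, 11 GSTU, 1 GSTF and 8 ALDH genes, and no GST of the zeta class. Each gene had 1 probe set, and none of these carried the letter that Affymetrix adds to sets able to detect several transcripts. Genes that the annotation lists under another name, as it does for many P450s, were not members, so 19 of the 23 P450s belonged to the single subfamily CYP71B.

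The 4 arrays (Affymetrix ATH1) measured RNA from rosettes harvested whole at an age of 46 days, from transgenic C24 plants with an inducible construct that overexpresses ORS1, a NAC-family transcription factor known as a promoter of leaf senescence. In the DEX group (2 arrays) plants were sprayed with 30 µM dexamethasone (DEX), a steroid that switches the construct on, and in the mock group (2 arrays) plants with the same construct received 0.05% ethanol; rosettes were taken 5 h later. No plants without the construct were among the samples, so a response to DEX itself and a response to ORS1 cannot be told apart. The labels name neither the promoter of the construct nor the line, and they do not give the number of plants per array, so p-values measure only the spread between these arrays. ORS1 (AT3G29035) was paired with 0 probe sets of the annotation used here, and its induction was not analysed.

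P450s are haem enzymes that insert oxygen into hormones, pigments, defence compounds and foreign chemicals. UGTs attach a sugar, most often glucose, to the products, GSTs join reactive molecules to glutathione, and ALDHs oxidise aldehydes to acids. In leaves the families serve both the making of specialised metabolites, such as glucosinolates and phenylpropanoids, and the disposal of toxic compounds during stress.

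Levels are log2 values as deposited. The whole table ran from 2.59 to 13.62 on this scale, and levels of different probe sets are not compared with each other. The 6 rosette photosynthesis markers that were measured, RCA, LHCB4.1, LHCB4.2, PSAN, PSBW and PSBY, lay between 11.48 and 13.42 on all 4 arrays, near the top of the table, with changes of -0.11 to 0.13; the other 9 listed were not paired with a tested probe set. Of 6 root markers 2 were measured: EXPA7 read 5.72 to 5.98, with a log2 change of -0.13, and PYK10 8.92 to 9.67, with one of 0.18. Of 6 guard cell lineage markers 2 were measured: FMA read 5.97 to 6.78, with a change of -0.47, and SPCH 5.66 to 5.81, with one of 0.027. None of these passed the test, and their part in the results was not tested. The 7 flower markers listed were not paired with a tested probe set. Whole rosettes hold many cell types, and more cells of a type cannot be told apart from more RNA per cell.

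No member was called. Of the 89 genes, 81 had at least 2 arrays at a log2 value of 4 or more and were tested, and 0 passed in either direction at an adjusted p under 0.05 (limma, Benjamini-Hochberg over 19883 probe sets), where 0.246% of all probe sets passed as higher and 0.201% as lower. The lowest adjusted p of a member was 0.131, for UGT73D1. At an unadjusted p under 0.05, 5 members were higher after DEX, against 4.73% of all probe sets, and 4 were lower, against 4.05%, which is 6.17% and 4.94% of the members. Among those higher, UGT76E12 and UGT76E1 were tested only because of their DEX values. With the variance of each gene estimated on its own, 0 members passed, but so did 0 of all probe sets in either direction.

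The changes were small. Their median was -0.0039 on the log2 scale, against -0.012 over all tested probe sets, and the median size without regard to sign was 0.16, against 0.14. The members ran from -0.53 (UGT74B1) to 0.72 (UGT73D1), so the largest difference was 1.65-fold, and 54 of the 81 lay under 0.25 in size. The 95% interval of the change stayed within 2-fold in both directions for 80 of the 81; the exception was UGT73D1, whose interval reached 1.08. These intervals are for single genes, rest on the variance pooled over all probe sets, and had standard errors (SE) of 0.11 to 0.24. A miss at this size does not show that a gene stayed level.

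**Figure D1:**
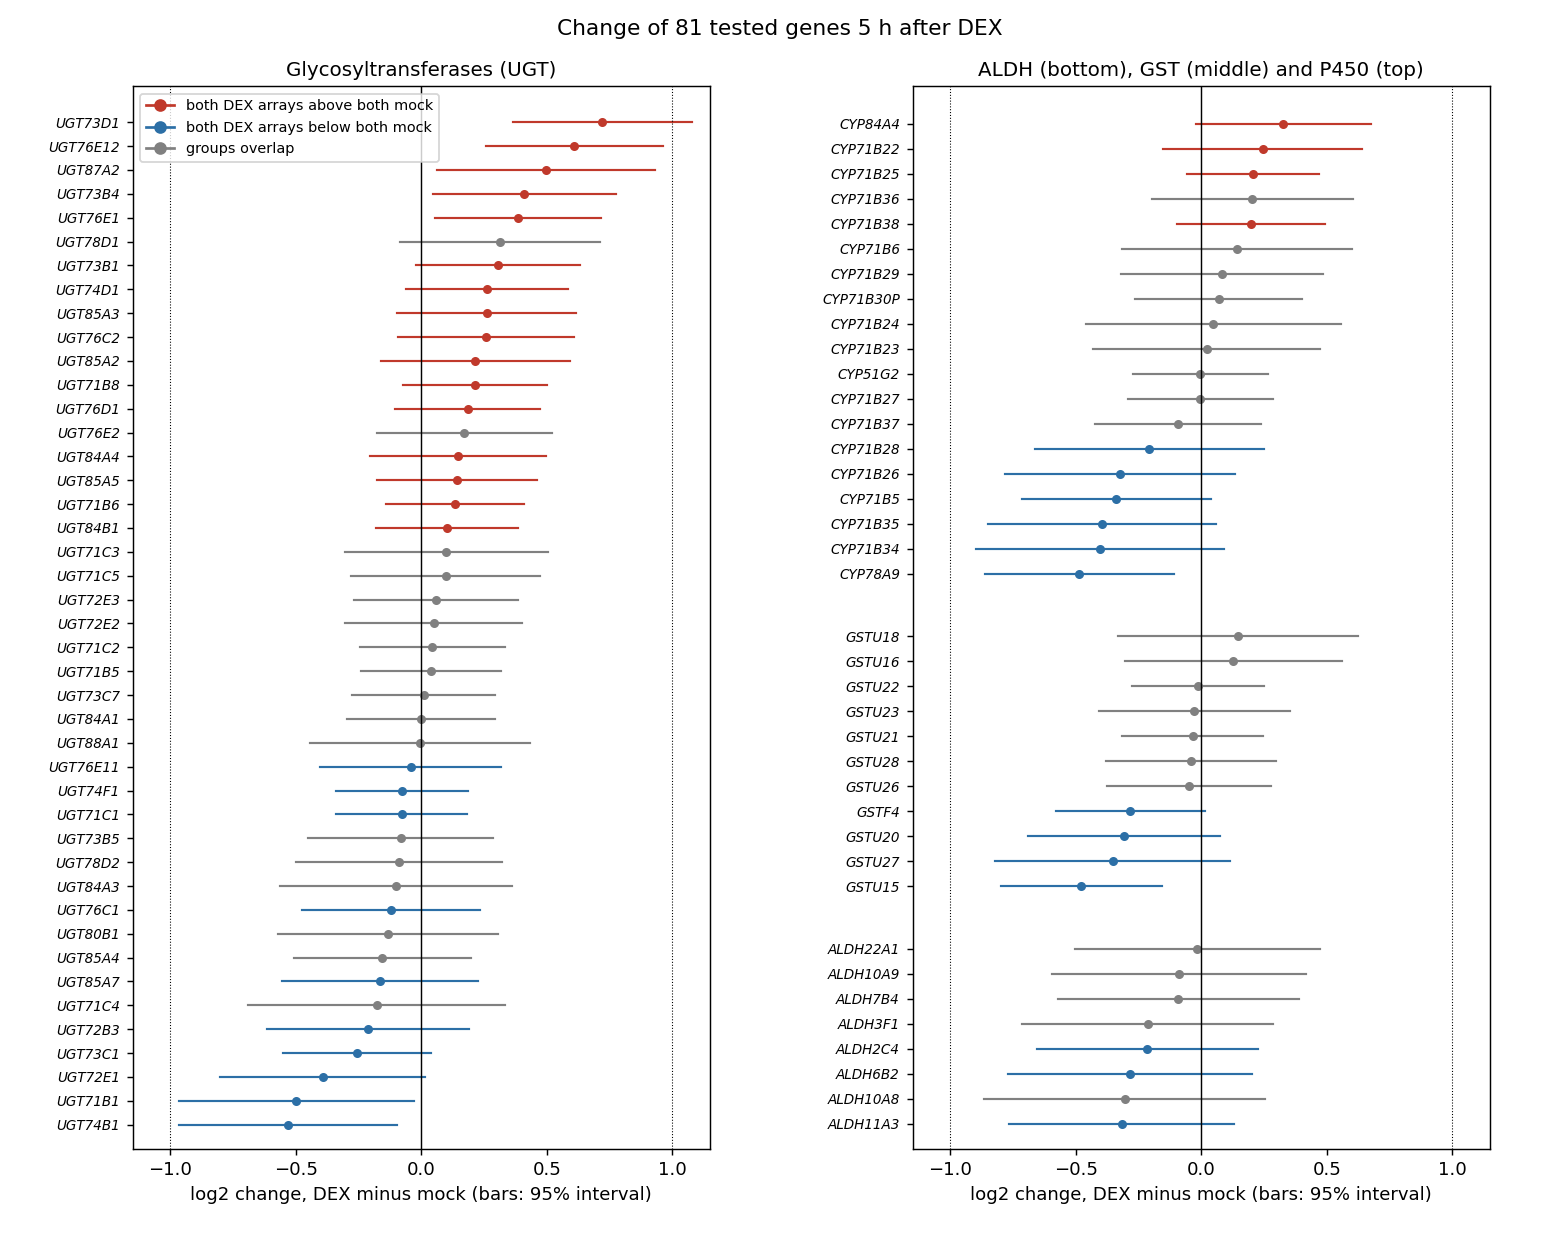
Log2 change, DEX minus mock, of the 81 tested genes, with UGT genes on the left and ALDH, GST and P450 genes on the right. Points are differences of group means (2 arrays each), bars the 95% interval from limma, dotted lines a 2-fold difference, and colours show whether both DEX arrays lay above or below both mock arrays. Only the bar of UGT73D1 crosses a dotted line, and 9 bars leave out 0.

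Many groups did not overlap all the same. Both DEX arrays lay above both mock arrays for 20 of the 81 members (24.7%; 18.1% of all tested probe sets), and below them for 23 (28.4%; 19.8% of all). The families differed in these counts, and that difference was not tested, since members of a family share sequence and arrays. For UGT genes 16 of 43 were higher without overlap and 10 lower, and for P450s 4 and 6 of 19. For GST genes the counts were 0 and 4 of 11, and for ALDH genes 0 and 3 of 8. The 16 include UGT76E12 and UGT76E1, which were tested only because of their DEX values.

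Among the glycosyltransferases, UGT73D1 (AT3G53150) differed most between the groups. It read 6.27 and 6.55 on the DEX arrays and 5.72 and 5.65 on the mock arrays. Both DEX values stood clear of the mock pair, by 0.55 at the closest. The change was 0.72 ± 0.16 (SE), or 1.65-fold (unadjusted p = 0.00153; limma adjusted p = 0.131). With 1 array left out, the spread comes from the other group's pair, and the lone array is assumed to vary like it. Fitted without mock replicate 2 UGT73D1 passed (0.69, adjusted p = 0.0367), where 9.07% of all probe sets were called higher, and without DEX replicate 2 it did not (0.58, adjusted p = 0.502). A block for the replicate number called it (adjusted p = 0.00243) with 2.2% of all probe sets higher and 1.19% lower, although the labels do not say that these numbers pair arrays. UGT73C7, which lies near it on the chromosome, read 4.30 and 4.49 after DEX and 4.44 and 4.33 after mock, a difference of 0.010 ± 0.12 (SE) with overlapping groups.

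UGT76E12 (AT3G46660) was the second largest. DEX arrays read 4.79 and 4.36 and mock arrays 3.99 and 3.94, so the mock pair lay just under the filter level of 4 and the gene was tested only because of its DEX values. The DEX pair was uneven (SD 0.30, n = 2) and DEX replicate 1 gave the higher value. The change was 0.61 ± 0.15 (SE; limma adjusted p = 0.202), 0.82 without DEX replicate 2 and 0.39 without DEX replicate 1; since the filter kept the gene through its high group, these are given as a description. UGT76E11, in the same chromosome region, read 6.85 and 6.90 against 6.92 and 6.92, a change of -0.042 ± 0.16 (SE) with groups 0.014 apart. The related UGT76E1, which in Arabidopsis glucosylates 12-hydroxyjasmonate, had values of 4.40 and 4.16 against 4.04 and 3.75. The change was 0.39 ± 0.14 (SE, limma adjusted p = 0.466), with the groups apart and close to the floor. Mock replicate 2 of UGT76E1 lay under 4, so this gene too was tested only because of its DEX values. For its neighbour UGT76E2 the groups overlapped (0.17 ± 0.15, SE).

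UGT87A2 (AT2G30140), known for a role in flowering time and stress tolerance, had the most even pairs of the large differences. Its levels were 9.70 and 9.70 after DEX and 9.19 and 9.21 after mock. The pairs were far tighter than their distance, with SDs of 0.0057 and 0.017 (n = 2). Limma, which draws the spread toward that of probe sets of like level, gave a change of 0.50 ± 0.19 (SE, adjusted p = 0.484). Without mock replicate 2 the change was 0.51. UGT73B4 (AT2G15490), whose enzyme glucosylates breakdown products of trinitrotoluene, read 4.85 and 4.48 after DEX and 4.12 and 4.38 after mock. The groups were 0.099 apart at the closest, and the change was 0.41 ± 0.16 (SE, limma adjusted p = 0.49). It moved with single arrays, to 0.23 without DEX replicate 1 and 0.28 without mock replicate 1. It passed only without DEX replicate 2 (0.60, adjusted p = 0.0494), where 0.593% of all probe sets were called higher and 0.362% lower. Its neighbour UGT73B5, a gene of pathogen and redox responses, overlapped between the groups, with a change of -0.081.

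In the opposite direction, the glycosyltransferase gene with the largest difference was UGT74B1 (AT1G24100), which glucosylates thiohydroximates in glucosinolate synthesis. It read 10.25 and 10.16 after DEX and 10.82 and 10.65 after mock. Mock replicate 1 was the highest and the groups were 0.39 or more apart. The change was -0.53 ± 0.19 (SE), a 1.44-fold lower level (limma adjusted p = 0.432). UGT71B1 (AT3G21750) read 8.01 and 8.21 after DEX and 8.75 and 8.46 after mock, a change of -0.50 ± 0.20 (SE; adjusted p = 0.531). UGT72E1 (AT3G50740), which glucosylates lignin precursors, read 7.62 and 7.63 after DEX and 8.08 and 7.96 after mock, and had a change of -0.39 ± 0.18 (SE; adjusted p = 0.59). For all 3 genes mock replicate 1 gave the highest of the 4 values. Without mock replicate 2 the change was -0.61 for UGT74B1, -0.64 for UGT71B1 and -0.45 for UGT72E1. Without mock replicate 1 it was -0.44, -0.35 and -0.34 in the same order. UGT73C1 (AT2G36750), which like UGT73B4 acts on trinitrotoluene products, read 4.82 and 4.84 against 5.18 and 4.99, a difference of -0.25 ± 0.13 (SE; adjusted p = 0.64).

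**Figure D2:**
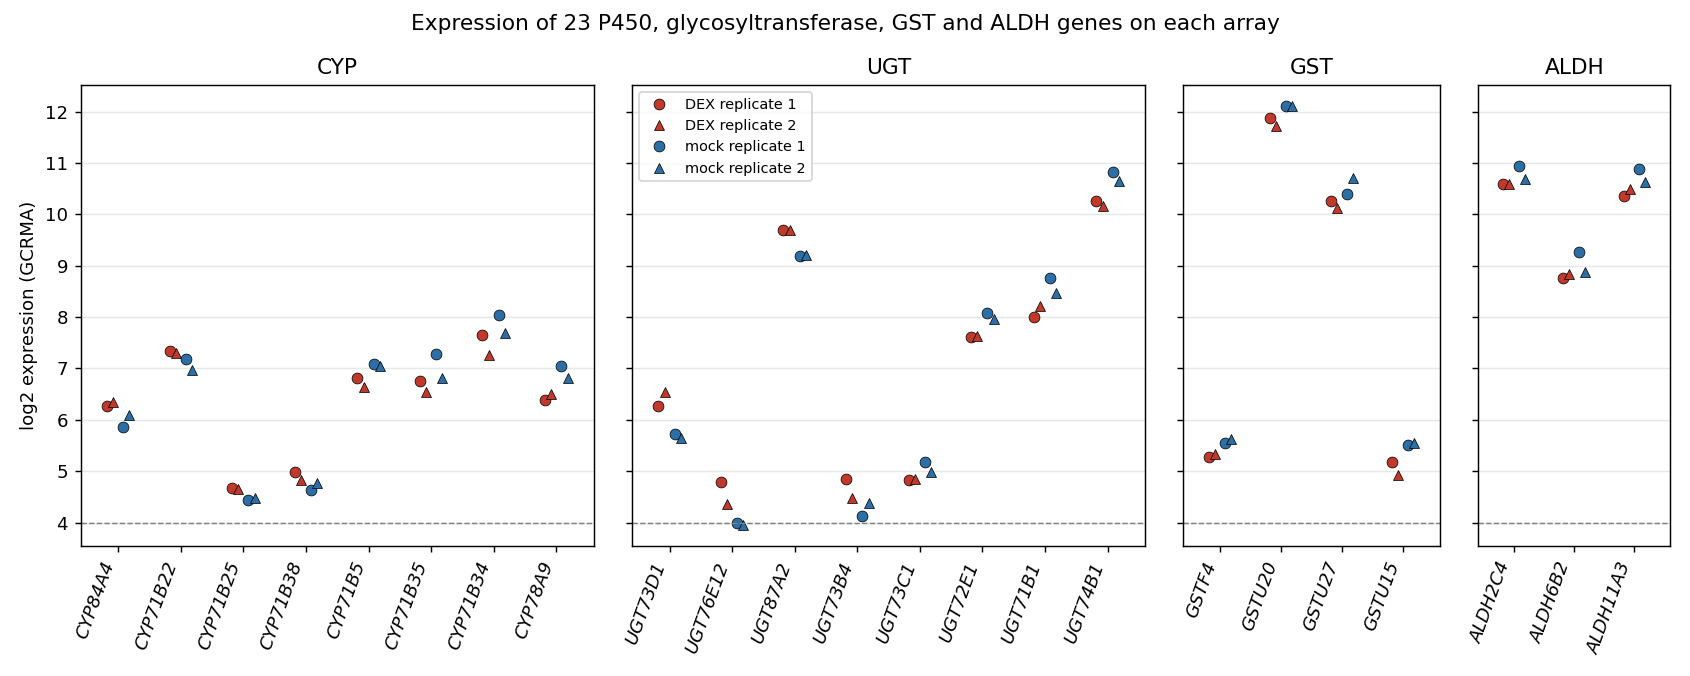
Log2 expression on each of the 4 arrays for the 23 genes with the largest non-overlapping differences of their family, ordered from higher to lower after DEX; red is DEX, blue is mock, circles are replicate 1, triangles replicate 2, and the dashed line is the filter level of 4. UGT73D1 and UGT87A2 show both DEX arrays well above the mock pair, and the ALDH panel shows mock replicate 1 above the other arrays.

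Grouped by known substrates, the UGT genes had changes on both sides of 0, except for the 3 tested genes listed for glucosinolates, sterols and stress. Of the 12 listed for hormones and salicylate 7 were tested and 0 passed, with a median change of 0.10. UGT76C2, which glucosylates cytokinins, read 6.86 and 6.86 after DEX and 6.59 and 6.61 after mock (0.26 ± 0.15, SE), whereas UGT76C1, its neighbour with the same activity, read 6.70 and 6.74 against 6.85 and 6.83 (-0.12 ± 0.15, SE). The groups were apart for both genes, in opposite directions, and both 95% intervals included 0. UGT74D1, an auxin glucosyltransferase, had a change of 0.26 ± 0.14 (SE), UGT84B1, another, of 0.10, UGT71B6 and UGT71C5, which act on abscisic acid, of 0.13 and 0.098, and UGT74F1, which forms salicylate glucosides, of -0.077. Of the 15 listed for flavonoids and phenylpropanoids 8 were tested and 0 passed (median 0.025). UGT78D1, a flavonol rhamnosyltransferase, had a change of 0.31 ± 0.17 (SE) with overlapping groups, and UGT78D2, the flavonoid glucosyltransferase, one of -0.088. The change of UGT84A1, a hydroxycinnamate glucosyltransferase, was 0 to the digits deposited, with DEX values of 5.22 and 5.21 inside the mock values of 5.14 and 5.29. Of the 8 listed for glucosinolates, sterols and stress, 3 were tested and 0 passed, all with changes below 0, with UGT80B1, a sterol glucosyltransferase, at -0.13 beside UGT74B1 and UGT73B5.

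Subfamilies of the UGT genes showed the same mixture. UGT73 and UGT76 had the highest medians among those with at least 4 tested genes, 0.16 over 6 and 0.19 over 7. Each had members on both sides of 0, and the 7 include UGT76E12 and UGT76E1, tested only because of their DEX values. In UGT85, which holds UGT85A2, UGT85A3 and UGT85A5 with non-overlapping higher values, the median was 0.14, and UGT85A7, from the same run on the chromosome, had a change of -0.16. UGT71 had a median of 0.044 over 9 genes and UGT72 one of -0.081 over 4.

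The P450 genes had a median change of 0.023 over the 19 tested. CYP78A9 (AT3G61880), whose product promotes the growth of fruits and seeds, was the furthest from 0. It read 6.40 and 6.49 after DEX and 7.04 and 6.82 after mock. The DEX pair lay below the mock pair by 0.32 or more, and the change was -0.49 ± 0.16 (SE), 1.40-fold lower (limma adjusted p = 0.394). Without mock replicate 2 CYP78A9 passed (-0.60, adjusted p = 0.0324), as did 6.98% of all probe sets as lower in that fit.

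CYP84A4 (AT5G04330), an enzyme of arabidopyrone synthesis, had the largest change above 0 among the P450s. It read 6.27 and 6.35 against 5.87 and 6.10 after mock, with groups 0.17 apart. The change was 0.33 ± 0.15 (SE; limma adjusted p = 0.601).

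The 16 tested CYP71B genes split, with 9 changes above 0 and 7 below, and a median of 0.036. Several of them lie close together on the chromosome. In the run of CYP71B25, CYP71B26, CYP71B34, CYP71B35, CYP71B36 and CYP71B37, 4 changes were below 0 and 2 above. CYP71B34 (AT3G26300) read 7.66 and 7.27 after DEX and 8.04 and 7.69 after mock. DEX replicate 1 came within 0.035 of mock replicate 2, and the change was -0.40 ± 0.22 (SE; limma adjusted p = 0.667). CYP71B35 (AT3G26310), next to it, read 6.76 and 6.55 against 7.27 and 6.82 (-0.40 ± 0.20, SE; adjusted p = 0.634), and CYP71B26 read 8.80 and 8.71 against 9.21 and 8.95 (-0.32 ± 0.20, SE). In all 3 the highest value was that of mock replicate 1. Without it the change was -0.23 for CYP71B34 and -0.17 for CYP71B35, and without mock replicate 2 it was -0.58 and -0.62. CYP71B34 also moved with the DEX arrays, to -0.60 without DEX replicate 1 and -0.21 without DEX replicate 2. CYP71B25 (AT3G26270), in the same run, read 4.68 and 4.65 against 4.44 and 4.47, a change of 0.21 ± 0.12 (SE; adjusted p = 0.678). Signal shared between such related neighbours was not tested.

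Elsewhere in the subfamily, CYP71B5 (AT3G53280) read 6.82 and 6.63 after DEX and 7.09 and 7.04 after mock, a change of -0.34 ± 0.16 (SE; limma adjusted p = 0.622). CYP71B22 (AT3G26200) and CYP71B38 (AT3G44250) had changes of 0.24 ± 0.17 and 0.20 ± 0.13 (SE), with groups 0.11 and 0.054 apart. CYP71B6, which converts indole-3-acetonitrile in the camalexin pathway, read 9.75 and 9.62 against 9.66 and 9.42, and the groups overlapped (0.14 ± 0.20, SE). It was the 1 tested gene of the 16 listed for glucosinolates and camalexin, and CYP84A4 the 1 of the 7 listed for phenylpropanoids and flavonoids. No listed P450 of brassinosteroid, gibberellin, abscisic acid, jasmonate, cytokinin, strigolactone, sterol, carotenoid, fatty acid or terpenoid metabolism was tested as a member. The lists were matched by gene symbol, and a gene listed under another name would be missed. CYP51G2 (AT2G17330) was tested and matched no listed name, and whether it encodes an active sterol enzyme was not examined. The groups of CYP51G2 overlapped, with a change of -0.0030 ± 0.12 (SE; limma adjusted p = 0.9995).

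Of the 10 tested tau-class genes 8 had a change below 0 and 2 above, with a median of -0.037 and none called. GSTU15 (AT1G59670) read 5.17 and 4.92 after DEX and 5.51 and 5.54 after mock. Both DEX values lay 0.33 or more below the mock pair, and the change was -0.48 ± 0.14 (SE), 1.39-fold lower (unadjusted p = 0.00878; limma adjusted p = 0.293). GSTU16, in the same run on the chromosome, read 7.84 and 7.78 against 7.54 and 7.82, with overlapping groups and a change of 0.13 ± 0.19 (SE).

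GSTU27 (AT3G43800) read 10.27 and 10.13 after DEX and 10.39 and 10.72 after mock, a difference of -0.35 ± 0.20 (SE; limma adjusted p = 0.693), which was -0.52 without mock replicate 1 and -0.19 without mock replicate 2. GSTU20 (AT1G78370), known from far-red light and jasmonate signalling, read 11.88 and 11.73 against 12.11 and 12.11 (-0.31 ± 0.17, SE; adjusted p = 0.672). The mock pair of GSTU20 was the tighter one. GSTU21, GSTU22 and GSTU23, which lie in one run with GSTU20, had changes of -0.034, -0.012 and -0.027, all with overlapping groups and all with values between 4.54 and 5.19. The phi-class gene GSTF4 (AT1G02950) read 5.27 and 5.33 against 5.54 and 5.62, a change of -0.28 ± 0.13 (SE; adjusted p = 0.595). GSTU26 and GSTU28 were near 0 (-0.049 and -0.039), and GSTU18 was the highest of the class at 0.15 ± 0.21 (SE), with DEX values of 9.35 and 9.27 that overlapped mock values of 8.99 and 9.34.

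All 8 ALDH genes had changes below 0, from -0.32 to -0.015, with a median of -0.21, and none passed (smallest limma adjusted p = 0.713). ALDH11A3 (AT2G24270), the non-phosphorylating glyceraldehyde-3-phosphate dehydrogenase, read 10.36 and 10.50 after DEX and 10.88 and 10.62 after mock (-0.32 ± 0.20, SE). ALDH6B2 (AT2G14170), the methylmalonate-semialdehyde dehydrogenase of valine breakdown, read 8.75 and 8.84 against 9.27 and 8.89 (-0.29 ± 0.21, SE). ALDH2C4 (AT3G24503), which makes ferulate and sinapate, read 10.60 and 10.59 against 10.94 and 10.68 (-0.21 ± 0.19, SE). In each of these, mock replicate 1 was the highest array, and mock replicate 2 lay within 0.12 of the nearer DEX array. Without mock replicate 2 the changes of ALDH11A3, ALDH6B2 and ALDH10A8 were -0.44, -0.48 and -0.63. Without mock replicate 1 those of ALDH11A3 and ALDH6B2 were -0.19 and -0.092. Of the other 5 genes, ALDH10A8, an aminoaldehyde dehydrogenase, had 10.85 on mock replicate 1 and 10.19 to 10.23 on the remaining arrays. Its change over all arrays was -0.31 ± 0.24 (SE), with overlapping groups. Mock replicate 2 was its lowest array, so without mock replicate 1 both DEX arrays lay above the mock value. ALDH3F1, ALDH7B4, ALDH10A9 and ALDH22A1 had changes of -0.21, -0.091, -0.089 and -0.015 with overlapping groups.

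Mock replicate 1 gave the highest value for 8 of the 8 ALDH genes, and for 7942 of all 19883 probe sets. Without it the median ALDH change was 0.0058, and without mock replicate 2 it was -0.38. Against the same-numbered mock array, ALDH genes were lower on DEX replicate 1 in 8 of 8, which follows from mock replicate 1 being the highest. On DEX replicate 2 they were lower in 4 of 8. Over all 19883 probe sets 10809 and 9713 were lower, and the labels do not pair these arrays. The tau-class GST genes showed the reverse on the mock pair. Mock replicate 1 lay below mock replicate 2 in 9 of 10, against 9074 of all 19883 probe sets. The median of mock replicate 1 minus mock replicate 2 was -0.22, against 0.036 over all tested probe sets. The median change of these GST genes was 0.031 without mock replicate 2 and -0.15 without mock replicate 1.

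**Figure D3:**
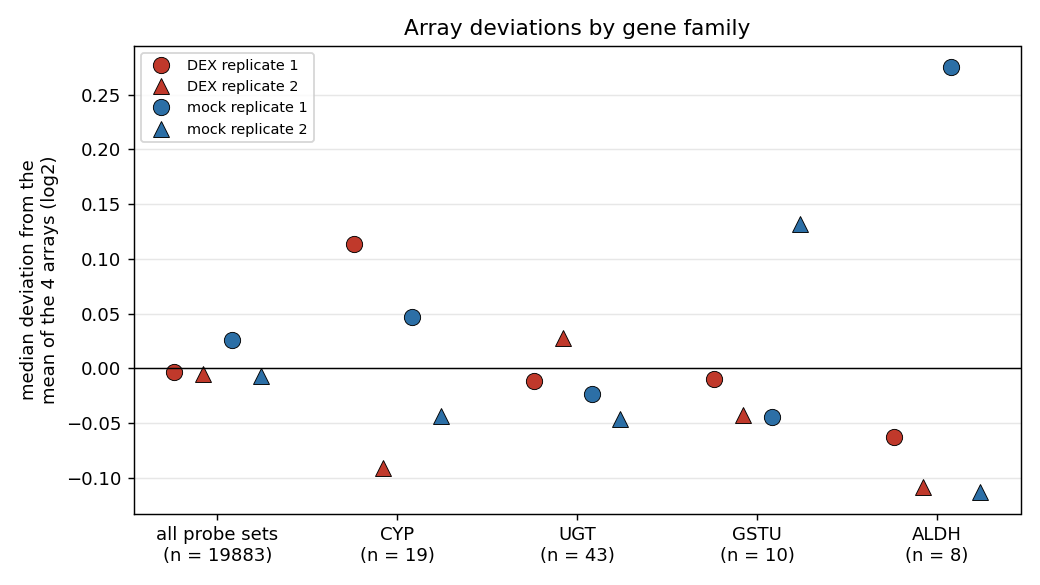
Median deviation of each array from the mean of the 4 arrays (log2) over all tested probe sets and over the tested CYP, UGT, GSTU and ALDH genes; red is DEX, blue is mock, circles are replicate 1 and triangles replicate 2. For ALDH mock replicate 1 stands at 0.27 and the other 3 arrays between -0.11 and -0.063, and for GSTU mock replicate 2 is the highest at 0.13.

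The families also differed in gene length, and its part in the differences between arrays was not tested. Gene spans in the RefSeq annotation were 2924 to 4628 bp for the ALDH genes (median 4007), 845 to 1724 bp for the GSTU genes (median 1244), 1447 to 2578 bp for the P450s and 1513 to 5072 bp for the UGT genes, against a median of 2197 bp over all tested genes with a span. With each array's trend on gene length removed, median changes were -0.14 for ALDH, -0.19 for GSTU, 0.030 for P450 and -0.0013 for UGT. Again 0 members passed (limma, smallest adjusted p = 0.0807 for UGT73D1), where 71 of all probe sets with a span passed as higher and 52 as lower. Both DEX arrays then lay below both mock arrays for 6 of 10 GSTU genes (22.1% of all 11284 probe sets with a span), 3 of 8 ALDH genes, 7 of 19 P450s and 11 of 43 UGT genes. They lay above them for 13 UGT genes (18.7% of all), 4 P450s, and 0 GSTU and 0 ALDH genes. The 43 UGT genes include UGT76E12 and UGT76E1, which were tested only because of their DEX values.

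**Figure D4:**
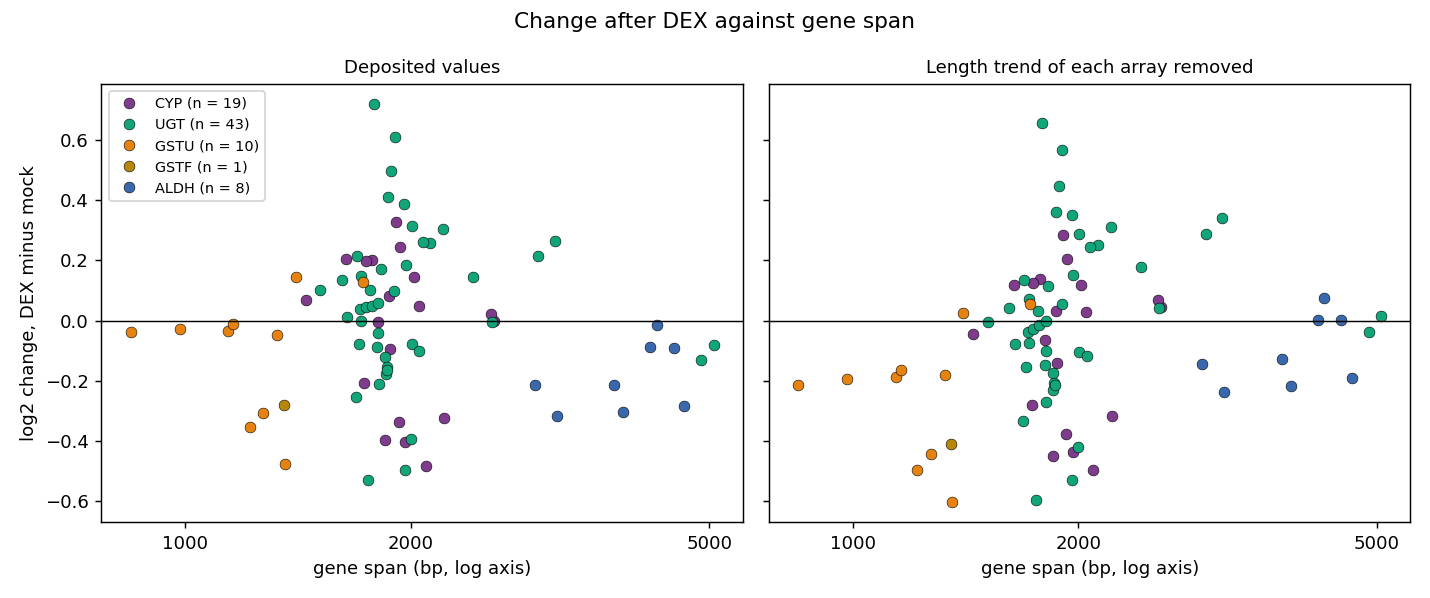
Log2 change, DEX minus mock, of the 81 tested genes against the span of the gene (log axis, bp), from the deposited values (left) and after the trend of each array on gene length was removed (right); colours are families. The GSTU genes are the shortest and move down from a median of -0.037 to -0.19, and the ALDH genes are among the longest and move up from -0.21 to -0.14.

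Most runs of related genes that lie together on the chromosome held changes of both signs, and this was not compared with unrelated genes. With at most 5 other annotated genes between them, 56 members fell into 20 such runs of 1 family. Of the 16 runs with at least 2 tested members 4 had changes of 1 sign and 12 did not. The 4 were GSTU20 to GSTU23 (all below 0), the pair UGT76E1 and UGT76E2, the pair UGT73D1 and UGT73C7, and CYP71B22, CYP71B23 and CYP71B24 (all above 0), the last with 0.24, 0.023 and 0.049. Some of these signs belong to changes well under their SE, such as 0.010 ± 0.12 (SE) for UGT73C7. UGT76E1 was tested only because of its DEX values.

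The 8 members that were not tested had values of 3.23 to 4.08 on all arrays, at the bottom of the table. They were GSTU25, CYP71B16, CYP71B21, CYP71B31, CYP79A2, UGT73C2, UGT78D3 and UGT84B2. Their changes ran from -0.052 to 0.22. CYP71B30P, whose name ends with the mark of a pseudogene, passed the filter with values of 4.02 to 4.41.

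Other genes of detoxification, such as vacuolar transporters of conjugates, other GST classes and enzymes of glutathione supply, were listed under 68 names, of which 2 were paired with a tested probe set. GSTL3, a lambda-class GST, read 11.05 and 10.99 after DEX and 11.25 and 11.28 after mock, a change of -0.25 ± 0.18 (SE; limma adjusted p = 0.76) with groups that did not overlap. GR1, a glutathione reductase, read 9.33 and 9.49 against 9.87 and 9.43 (-0.24 ± 0.22, SE; adjusted p = 0.832), with overlapping groups.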

How the data were processed

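The deposited table holds log2 expression values, 1 per probe set and array. GCRMA (background correction from probe sequence, quantile normalization, median polish) was used by the authors, per the submitters' processing notes; its version is not given in the sources used here. No header names the scale, so log2 was read from GCRMA's usual output and the range of values. Array medians were 6.51 to 6.55, and no further normalization was applied. The number of arrays limits the precision.

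Of 22810 probe sets, 64 controls and 2863 with fewer than 2 arrays at 4 were left out. For the other 19883, limma 3.58.1 under R 4.3.3 (lmFit, then eBayes with an intensity trend; 2 residual degrees of freedom) compared DEX with mock, two-sided, with Benjamini-Hochberg adjustment over all of them; under 0.05 is called. The test was tried on simulated data first. Names came from the platform annotation; all 89 members matched a gene of the RefSeq table (TAIR10.1), used only for names, span and neighbours. No build goes with the table, so no coordinates are given.

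Named genes were, per family (GST classes together), up to 4 non-overlapping genes in each direction by size, and any at an unadjusted p under 0.01; others come from substrate lists. That rule allowed up to 3 further members per list; the remaining ones, and chromosome neighbours and subfamily members such as UGT76E1, UGT73C7, CYP71B26 and GSTU16, were added after their values were seen. Members and lists were chosen with earlier results of these data known. The planned protein and promoter sequences were not used here.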

Additional observations from a re-analysis of the deposited data

How the results depend on the processing

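The count of members called, 0 higher and 0 lower, was the same with no filter, a filter at 5, quantile normalization, equal array medians, the length trend removed, no intensity trend, robust empirical Bayes, an unmoderated variance and an adjusted p under 0.1. A replicate block gave 2 higher (UGT73D1, and UGT76E12, which the filter kept only through its DEX values) and 0 lower, where 2.2% and 1.19% of all probe sets were called (438 and 237). The labels do not pair same-numbered arrays, so this carries little weight. Over all tested probe sets the deviations of same-numbered arrays from the group means correlated at 0.108. Whether such arrays vary together in part of the probe sets was not tested. Leaving out 1 array gave 0 to 2 members higher and 0 to 8 lower: 2 and 0 (UGT76E12, UGT73B4) without DEX replicate 2, where the variance rests on the mock arrays and 0.593% and 0.362% of all probe sets were called, and 2 and 8 without mock replicate 2, where 9.07% and 6.98% of all probe sets were called. There the variance rests on the DEX arrays, and the lone mock array is assumed to vary like them. The 8 were CYP78A9, CYP71B35, CYP71B26, UGT71B1, UGT74B1, ALDH10A8, ALDH6B2 and ALDH11A3, and the 2 were UGT73D1 and UGT87A2.

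Over all probe sets, 49 higher and 40 lower became 27 and 24 with no intensity trend, 80 higher (59 lower) with robust empirical Bayes, 0 and 0 with an unmoderated variance, 107 and 81 at an adjusted p under 0.1, 15 and 9 among genes with a span (added after the data were seen), and 112 to 1803 and 50 to 1388 with 1 array left out. Median changes also moved. For UGT genes 0.050 became 0.078 with no filter and -0.0013 with the length trend removed, which also moved GSTU to -0.19 and GSTF4 to -0.41. With 1 array left out the range was -0.096 to 0.12 for P450, 0.024 to 0.074 for UGT, -0.15 to 0.031 for GSTU and -0.38 to 0.0058 for ALDH. Why these values moved was not tested. Averaging probe sets of a gene, or keeping those with no added letter, changed nothing, because each member has 1 such set; GSTZ had no member. None of the 23 named genes changed sign in any setting that tested them, and the filter at 5 tested 18 of them. With an array left out the sign is fixed, since their groups do not overlap. It is also fixed under the filters, the replicate block and the variance settings, which leave the change itself as it was.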
